A study of Mus musculus with 10 samples.

Results

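Imprinted genes are transcribed mainly from the copy inherited from 1 parent, in many cases under the control of a DNA methylation mark that differs between the parental copies. Many paternally expressed imprinted genes favour growth of the fetus and placenta, and several maternally expressed ones restrain it. In the ovary these marks are erased in the germ line and laid down again in growing oocytes, while somatic granulosa cells, which surround the oocyte and make estradiol and inhibin, keep the parental pattern. The 9 genes described here were taken by symbol from a fixed list of imprinted growth-control genes. The paternally expressed ones are Peg3, Ndn, Snrpn, Sgce, Plagl1, Impact and Slc38a4, and Grb10 and Meg3 are expressed from the maternal copy in most tissues. A row of that name was found for 8 of the 9 among 35087 rows with a gene symbol. Meg3 was not analysed here. Reads do not tell the parental copies apart in these tables, so all values are totals over both.

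The libraries came from wild-type C57B6/J females aged 3 weeks, whose granulosa cells were cut out of ovary sections by laser and whose polyadenylated RNA was amplified by GEO-seq, a protocol for small captured areas. In the NAC group (4 libraries) mice received 150 mg/kg N-acetyl-L-cysteine, an antioxidant and cysteine source, by intraperitoneal injection on 3 consecutive days. In the saline group (6 libraries) they received saline in its place, and ovaries of both groups were taken on day 4. The labels name a single batch and no animal for any library. Captures may come from the same mouse, and p-values then reflect only how these captures vary.

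The promoter windows of 4 members are shown: Snrpn and Ndn, which share an imprinted cluster, and Plagl1 and Grb10, which had the smallest unadjusted p. Each runs from 250 bases before to 50 bases after a RefSeq start (GRCm38.p6), 5′ to 3′ on the gene's strand. Capitals mark matches, on either strand, to TGCCGC, the motif bound by the imprint-keeping factor ZFP57 when methylated, or to GCATGCG, a core of the NRF1 motif that was chosen after the sequences had been read.
Snrpn, chr7:60005150-60005449, minus strand: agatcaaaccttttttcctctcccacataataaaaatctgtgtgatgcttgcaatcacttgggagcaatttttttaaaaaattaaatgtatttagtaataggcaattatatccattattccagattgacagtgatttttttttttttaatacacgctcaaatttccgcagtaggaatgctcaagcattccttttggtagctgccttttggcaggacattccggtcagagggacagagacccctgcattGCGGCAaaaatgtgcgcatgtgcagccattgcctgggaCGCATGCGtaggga
Ndn, chr7:62348027-62348326, plus strand: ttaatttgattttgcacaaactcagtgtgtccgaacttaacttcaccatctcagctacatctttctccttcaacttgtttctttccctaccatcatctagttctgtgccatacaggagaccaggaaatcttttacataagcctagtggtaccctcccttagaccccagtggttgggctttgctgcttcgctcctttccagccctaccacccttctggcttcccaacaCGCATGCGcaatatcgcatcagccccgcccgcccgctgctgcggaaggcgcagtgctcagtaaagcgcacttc
Plagl1, chr10:13090582-13090881, plus strand: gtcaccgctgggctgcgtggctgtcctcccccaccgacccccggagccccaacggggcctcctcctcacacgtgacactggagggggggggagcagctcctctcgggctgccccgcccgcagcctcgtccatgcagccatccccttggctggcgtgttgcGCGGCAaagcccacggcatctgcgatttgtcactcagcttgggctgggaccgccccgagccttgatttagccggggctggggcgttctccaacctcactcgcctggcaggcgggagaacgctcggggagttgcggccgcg
Grb10, chr11:12037371-12037670, minus strand: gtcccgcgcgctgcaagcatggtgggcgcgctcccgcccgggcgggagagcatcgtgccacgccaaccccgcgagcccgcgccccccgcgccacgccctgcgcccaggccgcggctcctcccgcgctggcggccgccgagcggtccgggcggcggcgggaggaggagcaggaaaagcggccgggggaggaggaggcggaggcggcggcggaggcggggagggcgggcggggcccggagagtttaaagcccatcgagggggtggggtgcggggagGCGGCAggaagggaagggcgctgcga

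The CG dinucleotide, the site of the methylation marks, occurs 7 times in this Snrpn window, 11 times in that of Ndn, 26 times in that of Plagl1 and 45 times in that of Grb10, against a median of 7 over 32851 RefSeq windows of the same length. For Grb10, 98.1% of all windows hold fewer. TGCCGC is present in 11.6% of all windows, and among these 4 in those of Snrpn, Plagl1 and Grb10. The other 3 Snrpn windows and the other Grb10 window in the RefSeq table have no match to it. GCATGCG is present in 3.58% of all windows, among these 4 in those of Snrpn and Ndn, and in each of the other 3 Snrpn windows. A YY1 motif, GCCATNTT, present in 6.05% of all windows, had no match in these 4.

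Estimated reads came to 1295412, 509945, 116461 and 1667181 in NAC 1 to 4 and to 1340324 to 2488408 in saline, so NAC 2 and NAC 3 are the shallow ones. In NAC 3 a single read is worth 8.05 CPM (the read count scaled to a common library size with TMM factors) and in NAC 2 it is worth 2.05 CPM, against 0.445 to 0.721 CPM in the others. The 12 granulosa markers summed to 10365 to 25091 CPM in NAC and 15222 to 45364 CPM in saline, with the highest means for Inha, Serpine2 and Gja1. Not each was plentiful in every library, as Cyp19a1 fell to 0 and Amh to 2.05 CPM in NAC. Serpine2 and Nr5a2 had log2 ratios of NAC over saline of 0.40 and 0.08. The other granulosa markers had ratios from -3.37 (Inhba) to -0.30 (Foxl2), with Inha at -1.89. None of the 12 had an adjusted p under 0.05 by edgeR. Markers of other cells were present too. The 11 stroma and theca markers summed to 64.4 to 1910 CPM in NAC and 112 to 1066 CPM in saline, and the 13 oocyte markers to 206 to 1366 CPM in NAC and 1.33 to 1783 CPM in saline. The 6 endothelial markers summed to 48.3 to 162 CPM in NAC and 9.01 to 51.1 CPM in saline, and the 6 smooth muscle and pericyte markers to 16.1 to 674 CPM in NAC and 18.0 to 314 CPM in saline. The 6 immune markers summed to 0 to 45.0 CPM in NAC and 0.901 to 23.6 CPM in saline, and the 6 surface epithelium markers to 10.2 to 139 CPM in NAC and 19.8 to 70.8 CPM in saline. Of the latter, Krt18 averaged 32.1 CPM in NAC and 34.1 CPM in saline. Krt19, Upk1b, Upk3b and Msln had 0 reads in saline, and 26, 18, 67 and 78 reads over the NAC libraries. In such bulk captures, fewer cells of a type and less RNA per cell cannot be told apart. Over 10945 genes tested with edgeR's quasi-likelihood test, 0.0731% were called at an adjusted p under 0.05, 0.0183% as higher and 0.0548% as lower in NAC.

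None of the 8 measured members was called between NAC and saline, and none was called by DESeq2 or limma-voom with quality weights either, which called 3.96% and 4.35% of all genes. At an unadjusted p under 0.05, edgeR gave 2 of the 8, Plagl1 and Grb10, both higher in NAC, where it gave 7.82% of all genes as higher and 8.34% as lower. DESeq2 gave 3 of the 8 at that threshold, with 18.7% of all genes, and limma-voom 1, with 23.5%. The log2 ratios of NAC over saline, used from here on, ran from -0.66 to 1.52, with 4 above 0 and 4 below. Without NAC 4, 4 of the 8 had an unadjusted p under 0.05 in edgeR, where 1903 of 11347 genes had one, and none was called. That was the largest such count among the 25 refits. It was 0 with effective-length offsets, with oocyte and stroma scores as covariates and on log2(TPM + 0.1) with limma. It was also 0 without NAC 2 and NAC 3 together, without saline 3 and without saline 4. With thinning to the shallowest library, where 1 member was tested, it was 0 too. The 7 paternally expressed members had 3 values above 0 and 4 below, and their median was -0.02, against 0.02 over all genes tested. Grb10, the maternally expressed gene, had 1.51.

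**Figure D1:**
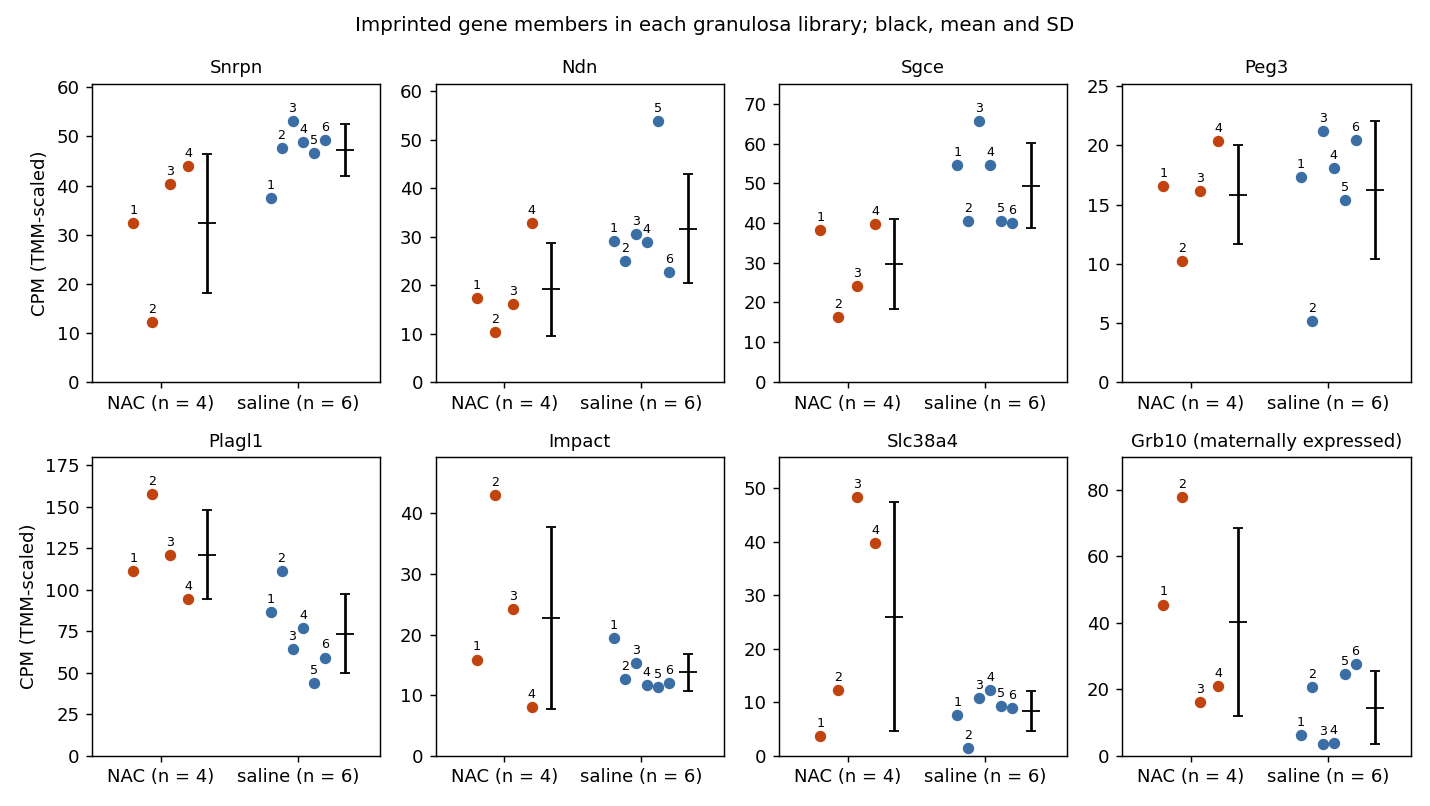
CPM of the 8 measured members in each library (points, numbered by replicate), NAC left of saline, with the mean and SD in black; each panel has its own axis from 0. The means of Snrpn and Sgce are lower in NAC (32.3 and 29.6 against 47.2 and 49.4 CPM in saline) and those of Plagl1 and Grb10 higher, without a call, and NAC 2 is the lowest library for Snrpn, Ndn and Sgce and the highest for Plagl1, Impact and Grb10.

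Levels of different members were compared per length, as CPM per kilobase of the longest GENCODE transcript. In saline, Snrpn stood first with 22.7 ± 2.55 CPM per kilobase (SD, n = 6), followed by Plagl1 with 14.0 ± 4.49, Sgce with 11.2 ± 2.42, Ndn with 8.57 ± 3.04, Impact with 3.65 ± 0.829, Grb10 with 2.85 ± 2.18, Slc38a4 with 2.13 ± 0.956 and Peg3 with 1.87 ± 0.670. Snrpn was above Plagl1 in 6 of 6 saline libraries and Ndn above Impact in 6 of 6, so on this scale these steps are larger than the spread. Plagl1 was above Sgce in 4 of 6 and Sgce above Ndn in 5 of 6. Impact over Grb10, Grb10 over Slc38a4 and Slc38a4 over Peg3 each held in 3 of 6, so these neighbours in the order did not differ beyond their spread. Impact was above Slc38a4 and above Peg3 in 6 of 6. In NAC, Plagl1 had 23.0 ± 5.08 CPM per kilobase (SD, n = 4) and Snrpn 15.5 ± 6.82, with Snrpn above Plagl1 in 1 of 4 libraries.

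The deposited TPM, which divides by a length that Salmon weighted by the transcripts seen in each library, put the top members closer together. In saline, Sgce had 32.5 ± 8.02 TPM (SD, n = 6), Plagl1 29.2 ± 16.2 and Snrpn 27.4 ± 2.46. Plagl1 was above Snrpn in saline 1 (50.8 against 26.5 TPM) and saline 4 (48.0 against 25.9 TPM), and below it in the other saline libraries. The step from Snrpn to Plagl1 thus did not hold in TPM. Sgce was listed with lengths of 138 to 253 bases and Plagl1 with 116 to 269 bases, although their longest annotated transcripts have 4416 and 5260 bases, and this enters their TPM.

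Snrpn and Ndn lie in the imprinted region of chromosome 7 whose human counterpart is lost in Prader-Willi syndrome. Snrpn encodes SmN, a splicing protein of the small nuclear ribonucleoprotein core (GRCm38 chromosome 7, 59982495 to 60140219, minus strand, protein-coding). It had 32.5, 12.3, 40.3 and 44.0 CPM in NAC 1 to 4, and 37.4 to 53.2 CPM with a median of 48.2 in saline. NAC 3 and NAC 4 lie within the saline range and the other NAC libraries below it, so the groups overlap. Snrpn averaged 32.3 ± 14.2 CPM in NAC (SD, n = 4) and 47.2 ± 5.29 CPM in saline (SD, n = 6), and the log2 ratio was -0.56 (SE 0.37, adjusted p = 0.474 by edgeR). It was the steadiest member among saline libraries, with an SD of 11.2% of its mean, against 21.7% to 76.5% for the others.

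Ndn encodes necdin, a MAGE family protein that binds E2F1 and restrains cell division in neurons (chromosome 7, 62346569 to 62350262, plus strand, protein-coding). It had 17.3, 10.2, 16.1 and 32.8 CPM in NAC 1 to 4, and 22.7 to 53.8 CPM with a median of 28.9 in saline. NAC 1, NAC 2 and NAC 3 lie below every saline library and NAC 4 lies inside the saline range. The means were 19.1 ± 9.61 CPM in NAC (SD, n = 4) and 31.7 ± 11.2 CPM in saline (SD, n = 6), and the log2 ratio was -0.65 (SE 0.45, adjusted p = 0.487 by edgeR). The values of NAC 2 and NAC 3 rest on 5 and 2 reads. Without those libraries the log2 ratio was -0.36 for Ndn and -0.33 for Snrpn, and without NAC 4 it was -1.20 for Ndn and -0.90 for Snrpn. Without NAC 2 alone it was -0.30 for Snrpn.

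Sgce encodes epsilon-sarcoglycan, a membrane protein of the dystrophin complex, and shares its promoter region with Peg10 (chromosome 6, 4674350 to 4747207, minus strand, protein-coding). It had 38.2, 16.4, 24.2 and 39.7 CPM in NAC 1 to 4, and 40.0 to 65.8 CPM with a median of 47.6 in saline. Sgce was the 1 member of 8 whose groups did not overlap with TMM scaling, where the same held for 5.38% of all genes tested and 3.43% lay lower in NAC. The gap between 39.7 and 40.0 CPM is narrow, and with RLE factors, library size alone or TPM the groups overlapped. The means were 29.6 ± 11.3 CPM in NAC (SD, n = 4) and 49.4 ± 10.7 CPM in saline (SD, n = 6), and the log2 ratio was -0.66 (SE 0.36, unadjusted p = 0.0868, adjusted p = 0.375 by edgeR).

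Peg3 encodes a zinc finger protein that controls placental genes and maternal behaviour in mice (chromosome 7, 6703892 to 6730431, minus strand, protein-coding). It had 16.6, 10.2, 16.1 and 20.4 CPM in NAC 1 to 4, and 5.18 to 21.2 CPM with a median of 17.7 in saline. NAC values lie inside the saline range, and saline 2 is far below its group, whose next lowest library had 15.4 CPM. The means were 15.8 ± 4.20 CPM in NAC (SD, n = 4) and 16.3 ± 5.83 CPM in saline (SD, n = 6), and the log2 ratio was -0.02 with a 95% interval of -1.15 to 1.12. That interval includes differences of up to these sizes in either direction.

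Plagl1 encodes the zinc finger transcription factor ZAC1, which slows the cell cycle and can raise the expression of other imprinted genes (chromosome 10, 13060504 to 13131694, plus strand, protein-coding). It had 154, 77, 15 and 176 reads in NAC 1 to 4, the most of any member in each. These gave 111, 158, 121 and 94.5 CPM in NAC 1 to 4, and 43.6 to 111 CPM with a median of 70.3 in saline. Only saline 2, at 111 CPM, reached the NAC range. The means were 121 ± 26.7 CPM in NAC (SD, n = 4) and 73.5 ± 23.6 CPM in saline (SD, n = 6), and the log2 ratio was 0.71 with a 95% interval of 0.08 to 1.35 (unadjusted p = 0.0306, adjusted p = 0.257 by edgeR). The value depended on the lengths. With effective-length offsets the log2 ratio of Plagl1 was 0.12, on log2(TPM + 1) it was 0.26, and after correction of GC content and length it was 0.42.

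A ratio of 2 members within a library does not depend on how libraries are scaled. For each Sgce read there were 2.91, 9.63, 5 and 2.38 Plagl1 reads in NAC 1 to 4, and 1.58, 2.74, 0.973, 1.40, 1.08 and 1.48 in saline 1 to 6. In this ratio only saline 2 reached the NAC range. The pair was chosen after its values were seen, so no test is given. Plagl1 took 31.5% to 46.4% of the members' reads in NAC and 17.8% to 42.1% in saline. Summed over the 8 members, levels were 281 to 340 CPM in NAC and 240 to 265 CPM in saline, without overlap, and this held with RLE factors and with library size alone. In TPM the sums were 81.4 to 132 in NAC and 89.2 to 143 in saline, and overlapped. With Grb10 left out, the 7 paternally expressed members summed to 235 to 290 CPM in NAC and 212.5 to 261 CPM in saline, which overlapped.

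Impact encodes an inhibitor of GCN2, the kinase that senses amino acid shortage (chromosome 18, 12955852 to 12992950, plus strand, protein-coding). It had 15.9, 43.0, 24.2 and 8.06 CPM in NAC 1 to 4, and 11.3 to 19.4 CPM with a median of 12.4 in saline. NAC 4 lies below all saline libraries and NAC 2 far above them. The means were 22.8 ± 15.0 CPM in NAC (SD, n = 4) and 13.7 ± 3.12 CPM in saline (SD, n = 6), and the log2 ratio was 0.67 (SE 0.55, adjusted p = 0.562 by edgeR). Impact's value rested on NAC 2, a shallow library with 21 Impact reads, and without it the log2 ratio was 0.03.

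Slc38a4 encodes a system A transporter of neutral amino acids that is abundant in placenta and liver (chromosome 15, 96994820 to 97055956, minus strand, protein-coding). It had 5, 6, 6 and 74 reads in NAC 1 to 4, which gave 3.61, 12.3, 48.3 and 39.7 CPM. In saline it had 1.41 to 12.2 CPM with a median of 9.06. NAC 3 and NAC 4 stood well above every saline library, and NAC 1 lay inside the saline range. The means were 26.0 ± 21.4 CPM in NAC (SD, n = 4) and 8.36 ± 3.76 CPM in saline (SD, n = 6), and the log2 ratio was 1.52 with a 95% interval of -0.02 to 3.05 (adjusted p = 0.314 by edgeR). Without NAC 4 it was 0.96. NAC 3 and NAC 4 also had the highest summed oocyte marker levels of their group, 991 and 1366 CPM, against 206 and 240 CPM in NAC 1 and NAC 2. Saline 4, with 1783 CPM of oocyte markers, had 12.2 CPM of Slc38a4, the top of its group, and saline 2, with 661 CPM, had 1.41 CPM, the lowest. With oocyte and stroma scores as covariates the log2 ratio was 1.78.

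Grb10 encodes an adaptor that binds the insulin and IGF1 receptors and damps growth signalling, and its maternal copy restrains fetal growth in mice (chromosome 11, 11930508 to 12038683, minus strand, protein-coding). It had 45.4, 77.8, 16.1 and 20.9 CPM in NAC 1 to 4. In saline 1 to 6 it had 6.23, 20.7, 3.61, 3.91, 24.6 and 27.6 CPM. Saline libraries split into a low and a higher set, and NAC 3 and NAC 4 lie within the saline range, NAC 3 with 2 reads. The means were 40.1 ± 28.2 CPM in NAC (SD, n = 4) and 14.4 ± 11.1 CPM in saline (SD, n = 6), and the log2 ratio was 1.51 with a 95% interval of 0.16 to 2.86 (unadjusted p = 0.0301, adjusted p = 0.255 by edgeR). Without NAC 2 it was 1.00.

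Grb10 and the stroma and theca markers were high in the same libraries. Their summed level was 1154, 1910, 64.4 and 811 CPM in NAC 1 to 4, and 139, 496, 112, 144, 728 and 1066 CPM in saline 1 to 6. The 3 saline libraries with over 20 CPM of Grb10 (saline 2, 5 and 6) had the 3 highest stroma sums of their group, and NAC 1 and NAC 2 had the highest values of both. NAC 3 had the lowest stroma sum of all. Saline 2, 5 and 6 also led their group in smooth muscle and pericyte markers (80.5, 150 and 314 CPM) and in endothelial markers (49.4, 49.7 and 51.1 CPM). NAC 1 and NAC 2 led NAC in smooth muscle and pericyte markers (191 and 674 CPM). In endothelial markers NAC 4, with 133 CPM, stood above NAC 1, with 66.4 CPM. With oocyte and stroma scores as covariates the log2 ratio of Grb10 was 0.86 (adjusted p = 0.926 by edgeR), against 1.51 without them. Both scores entered that refit together, so it does not single out stroma. Among refits without a stroma term, the log2 ratio of Grb10 was 1.08 with effective-length offsets and 2.33 with the replicate block. The part of stroma, smooth muscle and endothelial cells in the values of Grb10 was not tested.

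**Figure D2:**
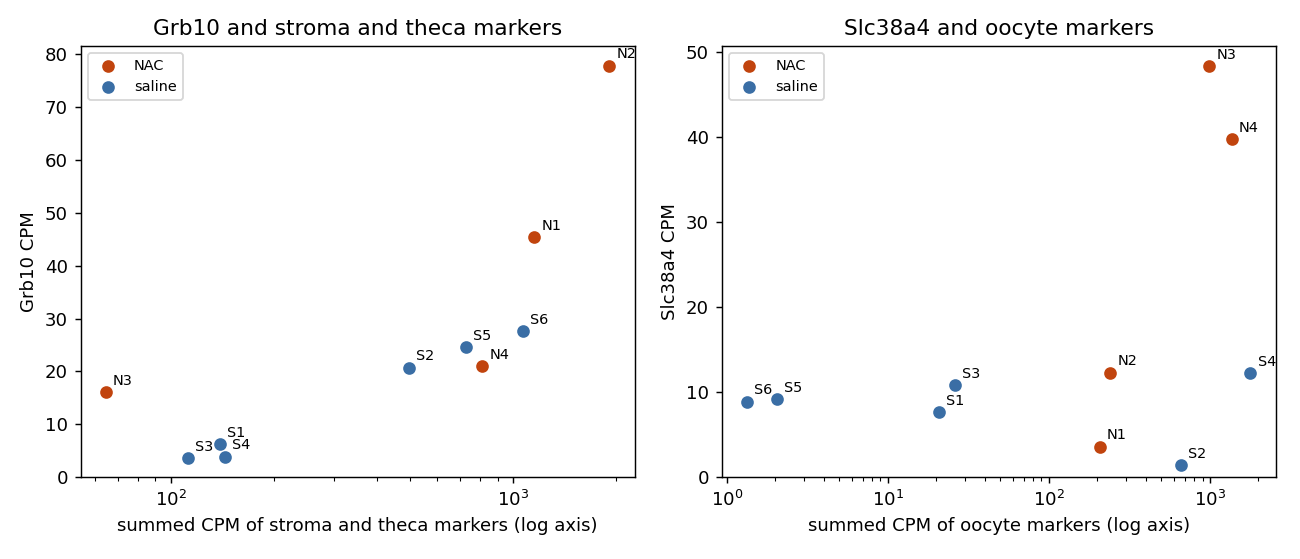
Left, Grb10 CPM in each library against the summed CPM of stroma and theca markers; right, Slc38a4 CPM against the summed CPM of oocyte markers (marker sums on log axes, N1 to N4 for NAC and S1 to S6 for saline). Grb10 is highest, at 45.4 and 77.8 CPM, in NAC 1 and NAC 2, where stroma sums are 1154 and 1910 CPM, and Slc38a4 is highest in NAC 3 and NAC 4.

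**Figure D3:**
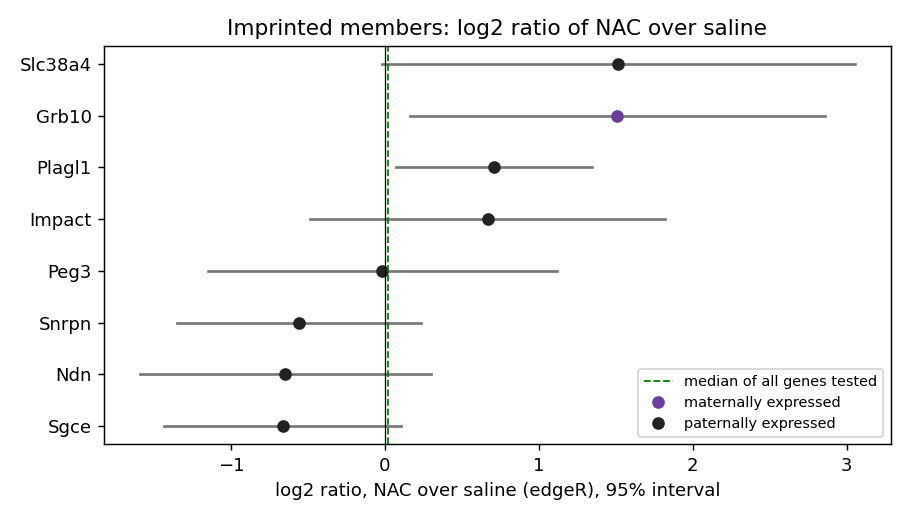
Log2 ratio of NAC over saline for the 8 measured members (points) with 95% intervals from edgeR; the dashed line is the median of all genes tested, 0.02. The intervals of Plagl1 (0.08 to 1.35) and Grb10 (0.16 to 2.86) lie above 0 and those of the other members include it, and no member passed after adjustment.

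Genes that share an imprinted cluster with a member were mostly near or at 0 reads. Of 21 such genes on the list, 19 had a row and 6 passed the filter for low counts. Peg10, a retrotransposon-derived gene needed in the placenta (chromosome 6, 4747306 to 4760517), starts 98 bases from the Sgce gene on the other strand. It had 3.22 CPM in NAC 4 and 0 in NAC 1, 2 and 3, and 0 to 6.66 CPM in saline, in libraries that held 16.4 to 65.8 CPM of Sgce. Usp29, a deubiquitinase gene that starts 146 bases from Peg3 on the other strand, had 0 to 10.8 CPM in NAC and 0.451 to 13.7 CPM in saline. Of Snurf, which shares a transcript with Snrpn, 0 reads were listed in NAC and 2 over all saline libraries, and how Salmon split reads between them is not known. Dlk1, a growth regulator of the Meg3 cluster, had 2 reads in NAC 1 and 0 in the other libraries.

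The 6 tested neighbours all had values above 0, except that 1 of the 6 was below 0 with effective-length offsets, with cell scores as covariates and with GC and length correction. The median log2 ratio of the 6 was 0.77, against 0.02 over all genes tested. Without NAC 1, 7 neighbours were tested and 1 was below 0. Without the low-count filter 18 were tested, 11 above 0 and 7 below, with a median of 0.50. None of the 6 was called by edgeR, DESeq2 or limma-voom, and 2 had an unadjusted p under 0.05 in edgeR, both higher, where 7.82% of all genes were. In limma-voom 5 of the 6 had one, where 23.5% of all genes did. Casd1, a sialic acid acetyltransferase gene near Sgce, had 48.7 ± 28.1 CPM in NAC (SD, n = 4) and 22.8 ± 4.81 CPM in saline (SD, n = 6), and the log2 ratio was 1.16 (adjusted p = 0.179 by edgeR). Cobl, an actin nucleator gene near Grb10, had a log2 ratio of 1.20 (adjusted p = 0.252 by edgeR), and 0.71 without NAC 3. Ppp1r9a, which encodes neurabin, had 0.68, and 0.42 without NAC 4. Atp10a, a phospholipid flippase gene, had 0.85, and 0.49 without NAC 1. Casd1 was thus above 0 where Sgce, in the same cluster, was at -0.66, and the difference between them was not tested.

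Of 39 other imprinted genes, which include some of these neighbours, 33 had a row and 18 were tested, with 11 values above 0, 7 below and a median of 0.13. Those called were Nap1l5 and Nnat, both lower in NAC, at log2 ratios of -2.76 and -2.63 (adjusted p = 0.0374 and 0.0407 by edgeR), 2 of 18 where 0.0548% of all genes were called as lower. The list was chosen with earlier results of these data known, so this share is no test of imprinted genes. These calls were lost when NAC 3, NAC 4 or any of saline 3 to 6 was left out, that of Nnat also without saline 2, and the adjusted p then reached up to 0.116 for Nap1l5 and 0.121 for Nnat. With effective-length offsets the adjusted p was 0.0625 and 0.0657, with cell scores as covariates 0.287 and 0.0934, and after GC and length correction Nnat was at -1.74 (adjusted p = 0.133 by edgeR). Saline 1 and saline 2 were lowest of their group in Nap1l5 (257 and 311 CPM), in Nnat (496 and 703 CPM) and in summed granulosa markers. Those sums were 15222 and 17703 CPM, against 40815 to 45364 CPM in the other saline libraries and 10365 to 25091 CPM in NAC. Within NAC, NAC 2 had the lowest sum and the highest Nap1l5 and Nnat (152 and 291 CPM). The part of granulosa marker level in these values was not tested. Blcap, the gene that hosts Nnat in its intron, had 33.7 ± 10.3 CPM in NAC (SD, n = 4) and 66.2 ± 13.3 CPM in saline (SD, n = 6), and the log2 ratio was -1.06 without a call (adjusted p = 0.151 by edgeR). DESeq2 called it as lower, and its sign turned on the TPM scale. Trappc9, a vesicle tethering gene, had a log2 ratio of -1.20 (adjusted p = 0.245 by edgeR). Igf2, the main fetal growth factor among imprinted genes, had 2 reads in NAC 1 and 0 in every other library.

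Partners and paralogs of the members gave 30 tested genes of 38 listed, 16 with values above 0 and 14 below, with a median of 0.14 and 0 calls. At an unadjusted p under 0.05 there were 2 higher and 5 lower, where 7.82% of all genes were higher and 8.34% lower. Among system A and N amino acid transporters related to Slc38a4, Slc38a3 had 62.4 ± 36.1 CPM in NAC (SD, n = 4) and 216 ± 109 CPM in saline (SD, n = 6), and the log2 ratio was -1.67 (adjusted p = 0.0970 by edgeR). Slc38a1 had 142 ± 54.3 CPM in NAC and 260 ± 18.3 CPM in saline, and the log2 ratio was -0.87 (adjusted p = 0.152 by edgeR), with groups that did not overlap. It was the 1 gene of the 30 that lay lower in NAC without overlap, where 3.43% of all genes tested did, a similar share. Slc38a4 lay on the other side, at 1.52. Snrpd1, which encodes a core splicing protein that sits in the same ring as SmN, had 359 ± 204 CPM in NAC and 159 ± 40.1 CPM in saline, and the log2 ratio was 1.16 (adjusted p = 0.115 by edgeR). Without NAC 2 it was 0.66, without NAC 2 and NAC 3 it was 0.37, and after GC and length correction 0.52. Dmd, the dystrophin gene, had 1.36 (adjusted p = 0.125 by edgeR), and 0.68 after GC and length correction, while Sgce was at -0.66. DESeq2 called Slc38a3, Snrpd1 and Dmd, and limma-voom called Slc38a1.

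Genes that keep or erase imprinting marks gave 18 tested of 20, with 14 values above 0, 4 below and a median of 0.45, with 0 calls. In edgeR without correction or covariates, 4 were higher and 1 lower at an unadjusted p under 0.05, beside the same 7.82% and 8.34% of all genes. The lower one was Trim28, with 304 ± 143 CPM in NAC (SD, n = 4) and 508 ± 74.3 CPM in saline (SD, n = 6). Its log2 ratio was -0.73 (unadjusted p = 0.0385, adjusted p = 0.275 by edgeR). Setdb1, a histone H3K9 methyltransferase gene that acts with ZFP57 and TRIM28, had 129, 172, 80.5 and 92.9 CPM in NAC 1 to 4 and 50.2 to 79.6 CPM in saline, without overlap. Its log2 ratio was 0.98 (adjusted p = 0.119 by edgeR). Ctcf, an insulator protein gene, had 143 ± 49.5 CPM in NAC (SD, n = 4) and 87.0 ± 13.9 CPM in saline (SD, n = 6), also without overlap, and the log2 ratio was 0.73 (adjusted p = 0.209 by edgeR), and 0.45 without NAC 2. Yy1, a zinc finger factor gene, had 0.89 and Tet2, a methylcytosine dioxygenase gene, 1.28, and with cell scores as covariates they had 0.51 and 0.49. Groups did not overlap, with NAC higher, in 2 of these 18 genes and in 1.96% of all genes tested. DESeq2 called Setdb1 and Yy1, and limma-voom called Zfp57 and Dppa3, all as higher in NAC.

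Several of these regulators are also oocyte genes. Zfp57, chosen after its values were seen, had 20.9, 18.4, 80.5 and 87.0 CPM in NAC 1 to 4. In saline it had 109 CPM in library 4 and 38.1 CPM in library 2, which lead their group in oocyte markers, and 0 to 6.92 CPM elsewhere. Dppa3, which is also on the oocyte marker list, had 23.1 to 170 CPM in NAC, against 72.3 and 51.3 CPM in saline 4 and saline 2 and 0 to 4.51 CPM in the other saline libraries. The part of oocyte RNA in these values was not tested.

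**Figure D4:**
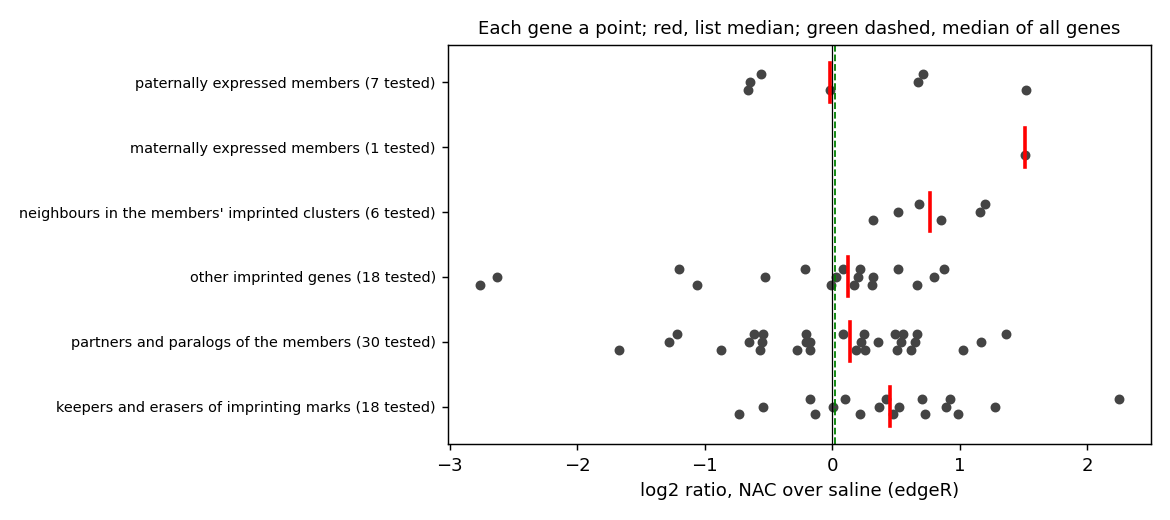
Log2 ratio of NAC over saline for each tested gene (points) of the members and of the related lists, with each list's median in red and the median of all genes, 0.02, as a dashed line. The 6 cluster neighbours lie above 0 with a median of 0.77 (1 of the 6 is below 0 with effective-length offsets, cell scores, or GC and length correction), while the paternally expressed members lie on both sides of 0. Without the low-count filter (not shown) 18 neighbours were tested, 11 above 0 and 7 below, and without NAC 1, 1 of 7 was below 0.

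Log2 ratios varied with transcript GC content over all genes. With genes split into 4 equal classes by GC content, the median log2 ratio was 0.44, 0.15, -0.18 and -0.41 from the lowest class to the highest. The members lie in the lower classes, with 38.4% (Sgce) to 48.5% (Grb10). Sgce, with the lowest GC content, was below 0, and after correction of GC content and length its log2 ratio was -1.09 (adjusted p = 0.286 by edgeR).

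The genes whose levels followed a member most closely over the 10 libraries were taken from 9559 genes with at least 10 CPM, by the root mean square difference of centred log2 CPM. For Snrpn they were Prep and Sf3a1, at 0.12 and 0.16 on the log2 scale, where the median gene was at 0.88. For Sgce they were Sod1 and Abcf1 (0.16 and 0.17), for Plagl1 Nfia and Mgea5 (0.18 and 0.19) and for Peg3 Ensa and Tsc2 (0.20 and 0.22). Ndn was nearest to Aarsd1 and Reep5 (0.25 and 0.27) and Impact to Ppp6c and Fgfr1op (0.21 and 0.21). The match was looser for Grb10, with Lgals1 and Cald1 at 0.39 and 0.48 where the median gene was at 1.48, and for Slc38a4, with Ccdc158 and Slc26a7 at 0.51 and 0.59 where it was at 1.42. These are descriptions over 10 libraries, of which 2 are shallow, and carry no test.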

How the data were processed

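Per the submitters' processing notes the authors quantified reads with Salmon against GRCm38; the version is not given in the sources used here. Per the file headers, a deposited table lists for each gene an estimated count, a TPM and 2 transcript lengths, average and effective. The 1548 rows that carry a transcript name in place of a symbol (0.496% to 0.638% of reads) were set aside. The deposited estimated counts were rounded and tested with edgeR 4.0.16 in R 4.3.3 (quasi-likelihood, robust estimation, TMM factors, default low-count filter, Benjamini-Hochberg over all genes). The log2 ratio is NAC over saline; 95% intervals come from the same fit. DESeq2 1.42.0 and limma 3.58.1 served as alternatives. The steps were tested on simulated data. Reads were amplified and carry no molecular identifiers, so precision from read numbers covers counting error only. Positions came from GENCODE M21 (GRCm38), promoter windows from RefSeq, in which 7 of the 9 genes had an entry and 4 of the windows are shown. All 9 genes are named by rule, as are the 4 genes with the smallest p in each related list and the 2 genes nearest to each member. Zfp57, Dppa3, Trim28, Dlk1, Igf2, Snurf, Peg10 and Usp29 were added after looking at values. Members and lists were chosen with earlier results of these data known. Libraries of 1 number did not deviate together (correlations of -0.01, 0.01, 0.01 and 0.20 for numbers 1 to 4), so the number was not used as a block. No 2 libraries agreed within sampling noise.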

Additional observations from a re-analysis of the deposited data

Results flagged for a closer look

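A library stood apart from its group in 3 of the 48 groups of values examined (24 genes in NAC and in saline), where chance gives about 1 in 20. Ctcf had 217 CPM in NAC 2, against 127 CPM in the next highest NAC library, and without NAC 2 its log2 ratio was 0.45, against 0.73 with it. Peg3 had 5.18 CPM in saline 2, from 11 reads, against 15.4 CPM in the next lowest saline library, and without saline 2 its log2 ratio was -0.23. Ndn had 53.8 CPM in saline 5, against 30.6 CPM in the next highest, and without saline 5 its log2 ratio was -0.47.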

How the results depend on the processing

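No tested member was called under any of the 25 refits, and thinning to the shallowest library left only Plagl1 to test. Ndn, Snrpn and Sgce stayed below 0 and Plagl1, Slc38a4 and Grb10 above 0 wherever they were tested. Peg3 turned positive with RLE factors (0.013), library size alone (0.19), the filter of 10 CPM (0.013), DESeq2 (0.025), limma-voom (0.12), the replicate block (0.18), both cell scores as covariates (0.40) and without NAC 2 and NAC 3 (0.15), and ranged from -0.28 to 0.14 with 1 library left out. Impact turned to -0.078 with limma-voom and to -0.25 without NAC 2 and NAC 3, and Blcap to 0.18 on both TPM scales. The 8 calls over all genes became 226 without a filter, 433 with DESeq2, 476 with limma-voom, 4 with effective-length offsets, 37 with thinning, 1 with cell scores, 17 with GC and length offsets, 2 without NAC 2 and NAC 3, 1 with the replicate block (adjusted p 0.530 for Nap1l5 and 0.593 for Nnat), and 1 to 58 with 1 library left out. The median of the paternally expressed members was 0.42 with thinning, 0.40 with cell scores, -0.39 with GC and length offsets, -0.25 without NAC 2 and NAC 3, and -0.28 to 0.035 with 1 library left out. Without Slc38a4 and Peg3, chosen after seeing the data, it was -0.56. The median of other imprinted genes was -0.19 with cell scores. The cause was not tested. Library size alone moved the median of all genes to 0.19. Depth limits all members: NAC 3 holds 2 to 15 reads of each.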
